A study of Rattus norvegicus with 24 samples.

Results

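The comparison described here is that of rat hearts on the first day of metformin dosing with vehicle hearts of the same day. It was taken from the sample titles, as the arrays named 800 mg/kg metformin heart and control heart at day 1, and it holds 8 of the 24 arrays of the series, 4 in each arm. Male RccHan Wistar rats, an outbred stock, aged 7 to 8 weeks, received 800 mg/kg metformin by gavage. Controls received the vehicle alone, a mixture of ethanol, the solubiliser Kolliphor HS 15 and tap water, which the metformin rats received too. The tissue profiled was left ventricle apex, whose RNA was read on 1-colour Affymetrix arrays. The remaining 16 arrays hold the same 2 arms after 3 or 14 days of daily gavage, in other animals. The time from the last gavage to necropsy, the hour of necropsy and the feeding state are not given in the labels used here.

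Metformin is a biguanide used to treat type 2 diabetes. It enters cells through organic cation transporters, slows respiratory complex I of the mitochondrion and so raises the activity of the energy sensor AMP-activated protein kinase (AMPK). The heart draws most of its energy from fatty acids, and it can also burn glucose, lactate, ketone bodies and branched-chain amino acids. Transcription factors such as PPAR-alpha (fatty acids), FOXO (insulin) and SREBP2 (sterols) set the levels of the enzymes for these fuels.

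All levels are log2 of the deposited intensity, and every difference is metformin minus control on that scale, with its standard error from the fit. No gene passed the test on day 1: 0 of 16031 genes had an adjusted p below 0.05 in either direction (background 0.0%, limma with Benjamini-Hochberg adjustment), and the smallest adjusted p was 0.187. Unadjusted p below 0.05 was met by 1078 genes (6.72% of those tested), against 802 that 0.05 of 16031 genes would give. Of these, 409 (2.55%) stood higher and 669 (4.17%) lower on metformin. The arms did not overlap, meaning that all 4 values of one arm lay above all 4 of the other, for 731 genes (4.56%), of which 282 (1.76%) stood higher and 449 (2.8%) lower. The excess of lower over higher genes depended on the scaling of the arrays. At an unadjusted p below 0.05, 62.1% of genes were lower with the deposited scaling, 48.0% after a second quantile normalization, 54.8% after cyclic loess and 84.2% when each array was centred on its median. Differences were small throughout. The median over all genes was -0.005, the 5th percentile -0.26 and the 95th 0.21, with a median standard error of 0.11, and 23 genes differed by 1 or more.

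**Figure D1:**
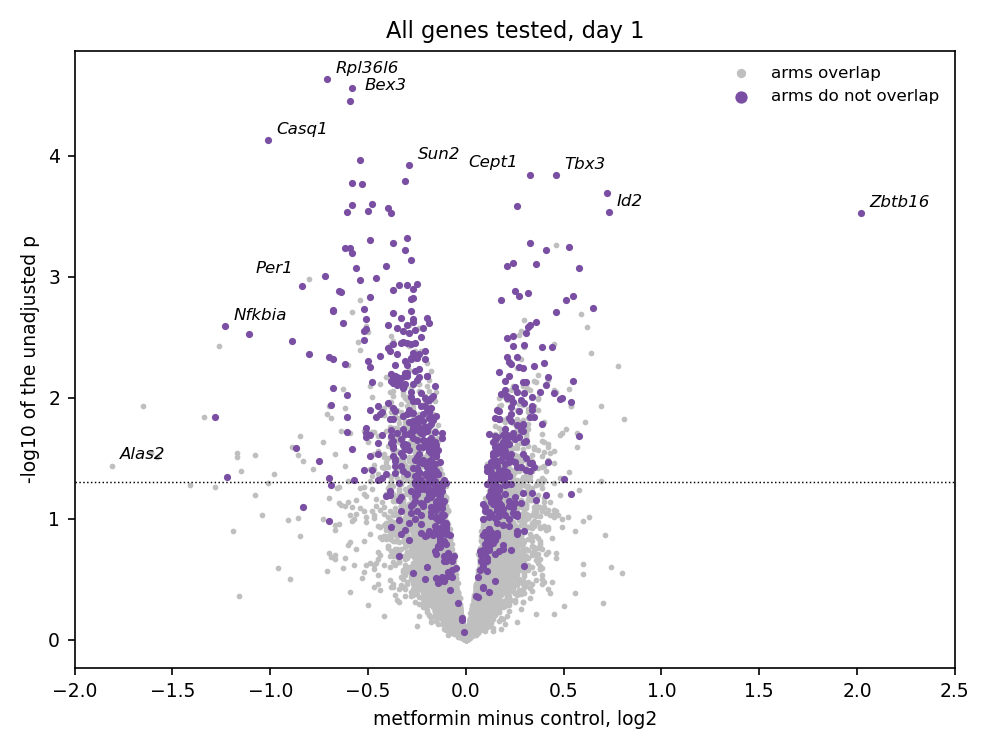
Each point is 1 of 16031 genes, with the day 1 difference (metformin minus control, log2) on the x axis and -log10 of the unadjusted p on the y axis. Purple points are the 731 genes whose arms do not overlap and the dotted line marks an unadjusted p of 0.05. Zbtb16 lies alone at the right with a difference of 2.02, and no point passed the adjusted threshold.

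Values for single genes are therefore given as levels and differences, none of which is a call. The 8 arrays resembled each other closely: correlations between them over all features ran from 0.988 to 0.991 and their log2 medians from 4.72 to 4.88. Some controls stood apart for particular genes. Control replicate 4 carried skeletal muscle transcripts and the highest interferon gene levels, control replicate 3 the highest glucocorticoid and atrial gene levels, and the controls as a group carried more red cell transcripts. These are described below, beside the genes they touch.

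Among genes with higher values, the mean difference was largest for Zbtb16, a zinc finger transcription factor whose gene responds strongly to glucocorticoids. It read 7.26, 7.16, 8.87 and 8.07 in the 4 controls and 9.25, 9.90, 9.59 and 10.73 in the 4 metformin hearts. The arms did not overlap, although control replicate 3 lay close to the lowest metformin heart. The difference was 2.02 (SE 0.47), a 4.07-fold higher value, with an adjusted p of 0.226. Leaving out any 1 array kept it between 1.74 and 2.37.

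Id2, an inhibitor of basic helix-loop-helix transcription factors that is expressed in the conduction system, read 8.93, 8.87, 8.80 and 9.07 in controls and 9.56, 9.49, 9.78 and 9.78 on metformin. The arms were apart by more than the whole range of either, and the difference was 0.73 (SE 0.17, adjusted p = 0.226). Tbx3, a T-box repressor that keeps conduction cells from taking on a working muscle programme, read 5.97, 6.09, 5.81 and 5.91 against 6.20, 6.44, 6.50 and 6.50. It was dim in every heart, the arms did not overlap, and the difference was 0.46 (SE 0.10, adjusted p = 0.226). Klf10, a zinc finger factor induced early by TGF-beta, stood at 6.24 to 6.35 in controls and 6.57 to 7.00 on metformin, a difference of 0.46 (SE 0.13, adjusted p = 0.461).

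Several genes of lipid, sugar and amino acid handling had small but tight differences. Cept1, which makes phosphatidylcholine and phosphatidylethanolamine, read 8.03, 7.92, 8.15 and 8.24 in controls and 8.38, 8.41, 8.33 and 8.53 on metformin (difference 0.33, SE 0.07, adjusted p = 0.226). Pmm2, which supplies mannose for protein glycosylation, lay between 7.83 and 7.97 in controls and between 8.11 and 8.19 on metformin (0.26, SE 0.06, adjusted p = 0.226). The neutral amino acid carrier Slc38a1 lay between 10.62 and 10.70 against 10.82 to 11.26 (0.41, SE 0.10, adjusted p = 0.313). In each of these the lowest metformin heart stood above the highest control. The deubiquitinase Usp33, at 9.42 to 9.47 against 9.64 to 9.73, and the zinc carrier Slc30a6, at 7.67 to 7.72 against 7.88 to 8.11, had controls that spanned 0.05 or less. Their differences were 0.24 (SE 0.06) and 0.32 (SE 0.09). Oxsr1, a kinase of ion cotransport and osmotic stress, differed by 0.21 (SE 0.05, adjusted p = 0.35).

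**Figure D2:**
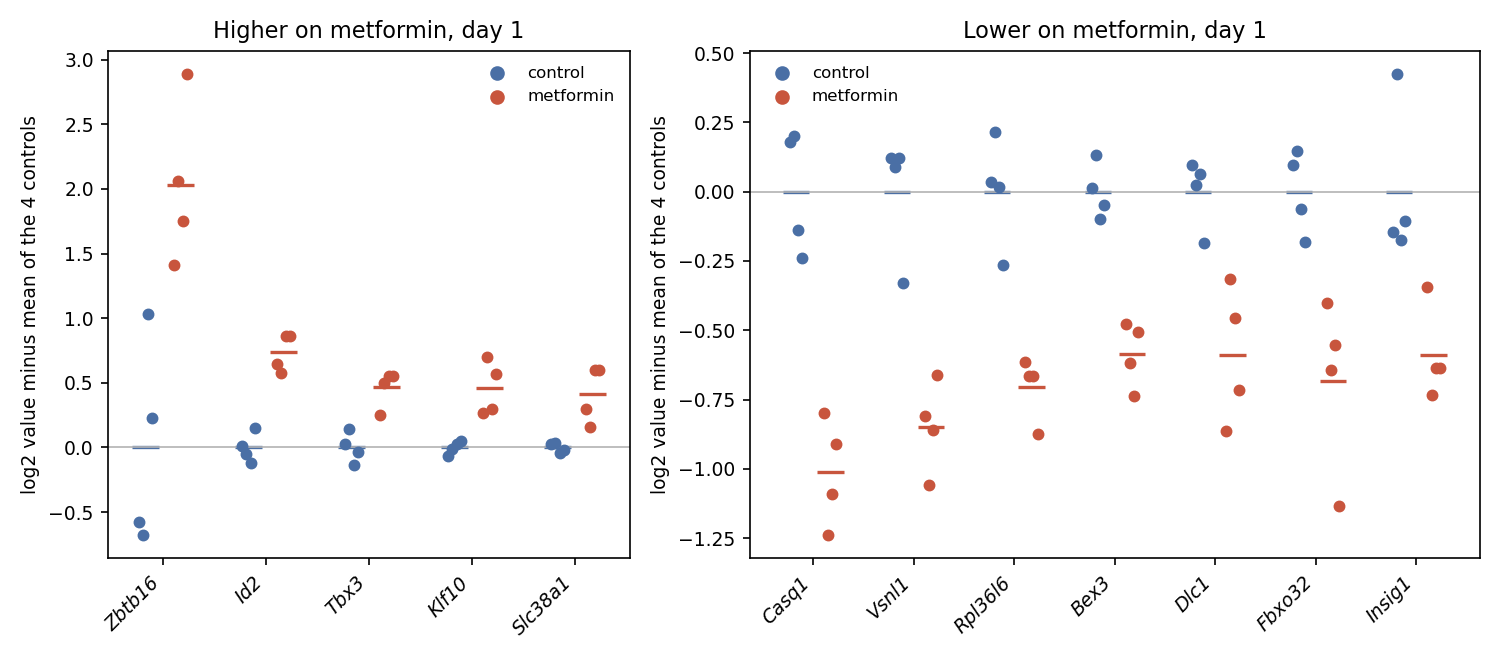
Points are single hearts on day 1 (4 control, 4 metformin), as log2 value minus the mean of the 4 controls, and bars are arm means. Left, genes higher on metformin; right, genes lower. In all 12 genes the arms do not overlap, and Zbtb16 spans the widest range within an arm.

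Among genes with lower values, Casq1 differed most of those with the smallest p. It encodes the skeletal isoform of calsequestrin, which buffers calcium in the sarcoplasmic reticulum. It read 11.28, 11.30, 10.96 and 10.86 in controls and 10.30, 9.86, 10.01 and 10.19 on metformin, with a gap between the arms of more than the range of either. The difference was -1.01 (SE 0.21), a 2.02-fold lower value, with an adjusted p of 0.226. Casq1 is also listed as a skeletal muscle marker. Control replicate 4, which carried skeletal transcripts, was the lowest control for it, and the difference without that heart was -1.09.

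Bex3, a small adaptor protein, read 9.82, 9.94, 9.71 and 9.76 in controls and 9.33, 9.19, 9.07 and 9.30 on metformin (difference -0.58, SE 0.11, adjusted p = 0.187). Dlc1, a GTPase-activating protein, read 11.86, 11.79, 11.83 and 11.58 against 10.90, 11.45, 11.31 and 11.05 (-0.59, SE 0.11, adjusted p = 0.187). Both pairs of arms were clear of each other, and metformin replicate 1 was the lowest heart for Dlc1. Rpl36l6, a copy of a ribosomal protein gene, lay between 8.29 and 8.77 in controls and between 7.68 and 7.94 on metformin (-0.71, SE 0.13, adjusted p = 0.187). Ubcl1, at 15.01 to 15.18 against 14.26 to 14.75, differed by -0.58 (SE 0.13). For these last 2 genes, probes shared with near-identical copies may add signal, so the assignment to 1 locus is uncertain.

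Vsnl1, a neuronal calcium sensor also present in heart, read 7.00, 6.97, 7.00 and 6.55 in controls and 6.07, 5.82, 6.02 and 6.22 on metformin (-0.84, SE 0.23, adjusted p = 0.408). Gpr22, an orphan receptor of cardiac muscle, read 13.36, 13.41, 12.47 and 12.67 against 12.27, 12.10, 12.08 and 11.98. Its arms did not overlap, but controls 1 and 2 stood well above controls 3 and 4, and the difference of -0.87 had a standard error of 0.36. Sema5a, an axon guidance protein, differed by -0.54 (SE 0.11, adjusted p = 0.226) and the Hedgehog co-receptor Boc by -0.53 (SE 0.12, adjusted p = 0.226). The ubiquitin ligase gene Rnf122 differed by -0.58 (SE 0.13), the chromatin protein gene Tox3 by -0.40 (SE 0.09) and the nuclear envelope gene Sun2 by -0.29 (SE 0.06). Map2k6, a kinase upstream of p38, lay between 7.34 and 7.55 in controls and between 6.75 and 7.10 on metformin, a difference of -0.48 (SE 0.11). Rogdi lay between 6.33 and 6.51 against 6.07 to 6.20.

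Some developmental transcription factors of the heart were higher and more were lower. Of 17 members tested, 4 stood higher and 13 lower, with a median of -0.14 (all genes -0.005). Unadjusted p below 0.05 was met by 2 higher members (Id2 and Tbx3) and 5 lower members, against 2.55% and 4.17% of all genes. The arms did not overlap for 2 higher and 4 lower members, against 1.76% and 2.8% of all genes. The list was chosen with earlier results of these data known, so these counts are descriptions and no test of the list. Prdm16, a regulator of compact ventricular muscle, read 7.72, 7.63, 7.34 and 7.35 in controls and 7.05, 6.92, 7.19 and 6.89 on metformin (-0.50, SE 0.11, adjusted p = 0.226). Mef2c, a MADS-box factor of muscle genes, lay between 11.63 and 11.70 against 11.25 to 11.46 (-0.30, SE 0.09, adjusted p = 0.497). Its relative Mef2a, at 13.86 to 13.98 against 13.69 to 13.82, differed by -0.18 (SE 0.07, adjusted p = 0.641). For these 3 factors the highest metformin heart was below the lowest control. Gata6, a zinc finger factor of heart development, differed by -0.39 (SE 0.12), and its arms overlapped because control replicate 4, at 11.32, lay below metformin replicate 1, at 11.42.

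Glucocorticoid-responsive genes stood mostly lower, unlike Zbtb16, which is one of them. Of 24 members tested, 5 stood higher and 19 lower, with a median of -0.21. Unadjusted p below 0.05 was met by 1 higher member (Zbtb16) and 6 lower members, against 2.55% and 4.17% of all genes. The arms did not overlap for 1 higher and 3 lower members (1.76% and 2.8% of all genes). Nfkbia, the inhibitor that holds NF-kappaB in the cytoplasm, read 9.02, 9.07, 10.34 and 8.70 in controls and 7.78, 8.13, 8.38 and 7.94 on metformin. The arms did not overlap, and control replicate 3 stood far above the other controls. The difference was -1.23 (SE 0.36, adjusted p = 0.473), and -0.88 without control replicate 3. Ddit4, a stress-induced brake on mTORC1, read 8.78, 8.70, 9.72 and 8.60 against 7.86, 8.00, 8.58 and 7.81, with the same control highest (-0.89, SE 0.27, adjusted p = 0.497). Without control replicate 3 it differed by -0.63, and the median of the list was -0.16. The metallothionein Mt1 differed by -0.78 (SE 0.36, adjusted p = 0.711), with overlapping arms because metformin replicate 4, at 8.52, was above 3 of the 4 controls, and by -1.07 to -0.44 when 1 array was left out. Fkbp5, a chaperone of the glucocorticoid receptor and a standard readout of its activity, lay between 6.98 and 7.46 in controls and between 6.99 and 7.50 on metformin, a difference of 0.10 (SE 0.16, adjusted p = 0.974). Tsc22d3, another such readout, differed by -0.29 (SE 0.11, adjusted p = 0.666).

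Immediate-early genes, which respond within minutes to stimulation and to handling of the tissue, varied as much among controls as between the arms. Of 26 tested, 6 stood higher and 20 lower, with a median of -0.22 that was -0.12 without control replicate 1 and -0.34 without control replicate 4. The mean level of the list, relative to its mean over all 24 arrays, was 0.35, -0.04, 0.30 and -0.40 in the controls and -0.10, -0.21, -0.08 and -0.21 on metformin, so that the metformin hearts lay inside the control range. Jun read 9.77, 9.37, 9.82 and 8.91 in controls and 8.40, 9.04, 8.88 and 8.75 on metformin (-0.70, SE 0.25, adjusted p = 0.618). Junb differed by -0.40 (SE 0.17) and Nr4a1 by -0.91 (SE 0.53), each with overlapping arms. Klf10, described above, is also in this list. It had the smallest p of the list and the only arms that did not overlap, and it stood higher, by 0.46 (SE 0.13).

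The circadian clock bears on these values because the hour of necropsy is not given. Of 20 clock genes and outputs, 8 stood higher and 12 lower, with a median of -0.08. That median was -0.01 without control replicate 1 and -0.13 without control replicate 4. Unadjusted p below 0.05 was met by 3 lower members (4.17% of all genes in that direction). Per1, a clock repressor that also responds to glucocorticoids, read 8.80, 8.16, 8.81 and 8.14 in controls and 8.29, 7.46, 7.51 and 7.45 on metformin. Only metformin replicate 1 reached into the control range, and the difference was -0.80 (SE 0.21, adjusted p = 0.399). Bmal1, the activator of the clock loop, lay between 9.51 and 10.41 in controls and between 9.53 and 10.20 on metformin (-0.12, SE 0.25). Its repressor Nr1d1 lay between 7.05 and 8.55 against 7.21 to 8.55 (0.28, SE 0.47). Both genes covered nearly the same range in each arm. Dbp, a clock output, lay between 7.20 and 7.59 against 6.99 to 7.14 (-0.27, SE 0.24), and Hlf differed by -0.31 (SE 0.12, adjusted p = 0.652).

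**Figure D3:**
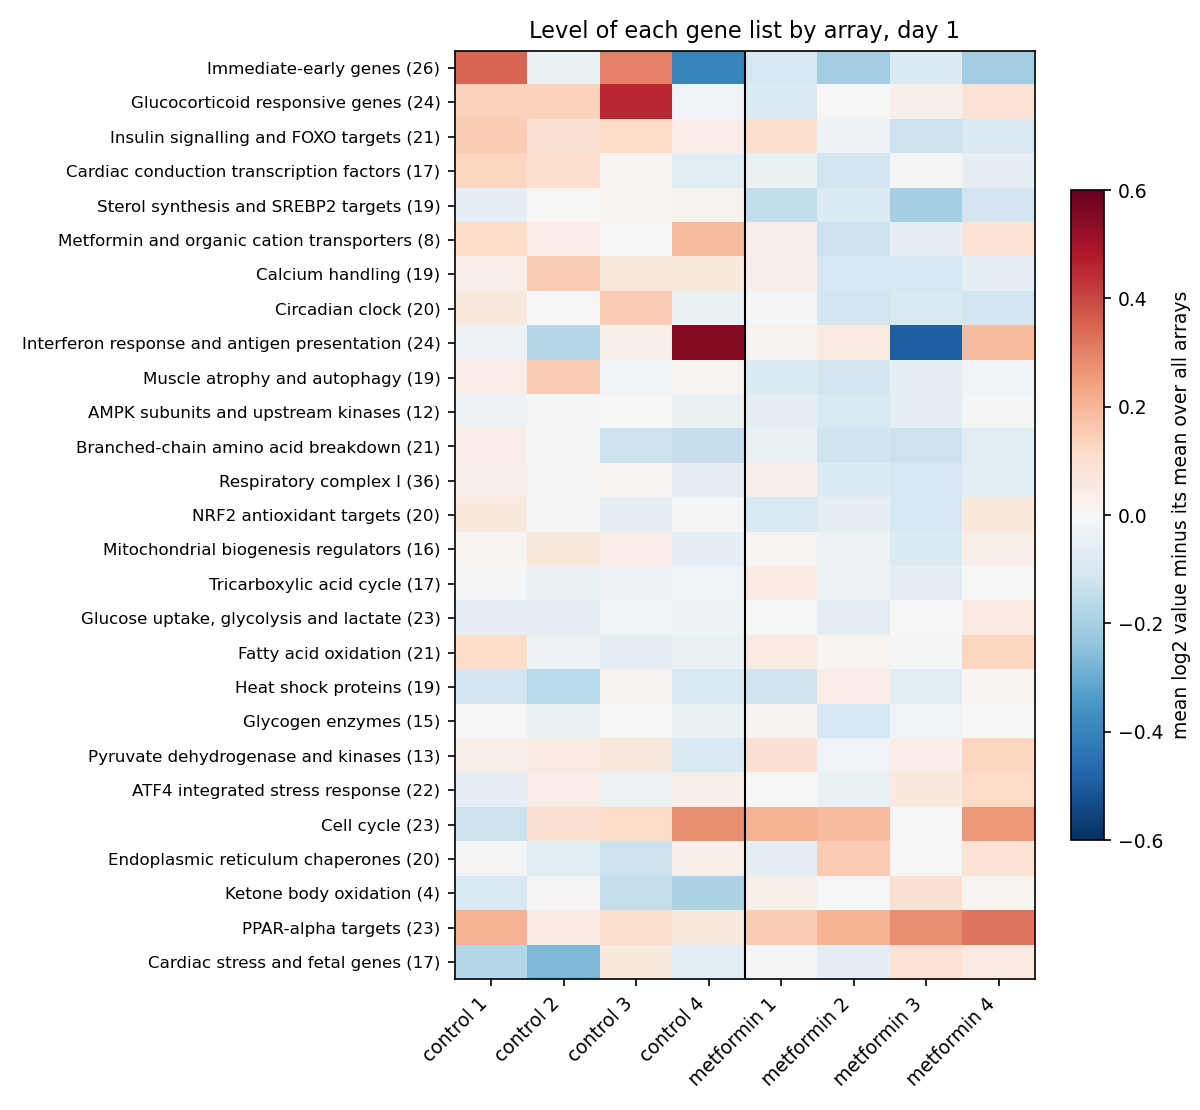
Rows are the 27 gene lists ordered by their median day 1 difference, with the number of genes tested in brackets, and columns are the 8 hearts. Colour is the mean log2 value of the list relative to its mean over all 24 arrays. Immediate-early, glucocorticoid and interferon genes differ most among hearts of the same arm, with control 3 highest for glucocorticoid genes and control 4 for interferon genes.

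Most PPAR-alpha targets, genes of fatty acid use, stood slightly higher. Of 23 PPAR-alpha targets tested, 19 stood higher and 4 lower on metformin (48.4% of all genes stood higher), with a median of 0.09 that lay between 0.06 and 0.16 under the other scalings and between 0.10 and 0.19 with 1 heart left out (0.19 without metformin replicate 1). Unadjusted p below 0.05 was met by 4 higher members and 0 lower ones (2.55% and 4.17% of all genes), and the arms overlapped for all 23. Mlycd, which breaks down the fatty acid oxidation inhibitor malonyl-CoA, read 9.16, 9.03, 8.91 and 8.95 in controls and 9.38, 9.10, 9.14 and 9.48 on metformin (0.26, SE 0.11, adjusted p = 0.674). Angptl4, a secreted inhibitor of lipoprotein lipase, was dim, at no more than 5.52 in any heart, and differed by 0.33 (SE 0.16, adjusted p = 0.73). The carnitine carrier Slc25a20 lay between 12.38 and 12.58 on metformin and between 12.13 and 12.16 in 3 controls, but control replicate 1 stood at 12.49 (0.25, SE 0.12, adjusted p = 0.741). Cpt1b, the muscle gate for fatty acids into mitochondria, showed the same control at 15.49 and the others at 15.24 to 15.36, against 15.48 to 15.59 on metformin (0.18, SE 0.09, adjusted p = 0.739).

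Pdk4, the kinase that shuts off pyruvate oxidation when fatty acids are burned, read 13.97, 13.77, 14.38 and 13.09 in controls and 14.12, 13.90, 14.70 and 14.87 on metformin. The arms overlapped, and the difference of 0.60 had a standard error of 0.54. The 21 fatty acid oxidation enzymes had a median of 0.02, which was -0.02 when arrays were centred and 0.14 after a second quantile normalization. Etfb, a subunit of the electron carrier of this pathway, was lower in every metformin heart (14.15 to 14.28) than in every control (14.30 to 14.55), a difference of -0.18 (SE 0.09, adjusted p = 0.766). Decr1, an enzyme for unsaturated fatty acids, differed by 0.37 (SE 0.26), with control replicate 1 inside the metformin range.

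For ketone bodies, Bdh1, the first enzyme of their oxidation, lay between 8.23 and 8.80 in controls and between 8.55 and 9.04 on metformin (0.42, SE 0.18, adjusted p = 0.675). Oxct1, the next step, lay at 18.56 to 18.72 against 18.55 to 18.66 (-0.05, SE 0.06). Of 21 genes for branched-chain amino acid breakdown, 7 stood higher and 14 lower with a median of -0.04 (-0.08 without control replicate 3, -0.02 without control replicate 1), which turned to 0.03 after a second quantile normalization and to 0.02 after cyclic loess. Unadjusted p below 0.05 was met by 4 lower members and 0 higher ones, against 4.17% and 2.55% of all genes. Differences ran from -0.32 to 0.46, and the arms did not overlap for 1 higher and 1 lower member (1.76% and 2.8% of all genes). Dbt, the core enzyme of the branched-chain ketoacid dehydrogenase complex, lay between 14.80 and 15.00 in controls and between 14.67 and 14.78 on metformin (-0.21, SE 0.09, adjusted p = 0.666). Its partner Bckdha differed by -0.25 (SE 0.10), the activating phosphatase Ppm1k by -0.32 (SE 0.14) and the transaminase Bcat2 by -0.26 (SE 0.12), each with overlapping arms.

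In glucose use, the 23 genes of uptake, glycolysis and lactate had a median of 0.02 (-0.02 with centred arrays, 0.12 after a second quantile normalization). Arrdc4, an arrestin-like protein that curbs glucose uptake, differed by 0.34 (SE 0.14, adjusted p = 0.691) and the lactate exporter Slc16a3 by 0.19 (SE 0.09, adjusted p = 0.707). Slc16a3 was dim, at no more than 5.16 in any heart. Txnip, a relative of Arrdc4 with the same action, lay between 12.81 and 13.89 against 13.14 to 13.72 (0.29, SE 0.41). The glucose carrier Slc2a1 differed by -0.26 (SE 0.18). Among 15 glycogen genes, Phkg1, the catalytic chain of phosphorylase kinase in muscle, read 8.20, 8.28, 8.18 and 7.98 in controls and 7.74, 7.71, 7.55 and 7.59 on metformin. The arms did not overlap, and the difference was -0.51 (SE 0.15, adjusted p = 0.473). Phkb, a regulatory subunit of the same kinase, differed by 0.17 (SE 0.08, adjusted p = 0.693).

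Genes under insulin and FOXO control stood mostly lower. Of 21 tested, 5 stood higher and 16 lower, with a median of -0.19 (-0.12 to -0.23 under the other scalings). Unadjusted p below 0.05 was met by 4 lower and 0 higher members (4.17% and 2.55% of all genes). Differences ran from -0.44 to 0.63, so that the largest in size was that of a higher member. Foxo1, the factor that insulin excludes from the nucleus, read 11.69, 11.95, 11.92 and 11.72 in controls and 11.39, 11.53, 11.71 and 11.34 on metformin. Metformin replicate 3 alone stood above the lowest control (-0.33, SE 0.11, adjusted p = 0.589). The insulin receptor substrate Irs1 differed by -0.34 (SE 0.16), with control replicate 1 at 9.71 and the other controls at 9.17 to 9.23. Irs2, the other substrate, spread from 8.82 to 10.57 in controls and from 8.68 to 10.55 on metformin (-0.36, SE 0.44). Ccng2 and Pik3ip1, which FOXO factors induce, differed by -0.27 (SE 0.10) and -0.28 (SE 0.13).

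Of 19 genes of muscle atrophy and autophagy, 5 stood higher and 14 lower, with a median of -0.06 (-0.10 without control replicate 4). Unadjusted p below 0.05 was met by 3 lower members (4.17% of all genes in that direction). Fbxo32, the muscle ubiquitin ligase atrogin-1 and a FOXO target, read 15.45, 15.50, 15.29 and 15.17 in controls and 14.95, 14.71, 14.80 and 14.22 on metformin. Every metformin heart was below every control, by -0.68 (SE 0.19, adjusted p = 0.461). Trim63, the other classic muscle ubiquitin ligase, differed by -0.26 (SE 0.15) with overlapping arms. Pink1, a kinase that marks damaged mitochondria for removal, lay between 15.81 and 16.05 against 15.75 to 15.81, arms that did not overlap before rounding (-0.19, SE 0.08, adjusted p = 0.666). Bnip3l, a mitophagy receptor that is also abundant in maturing red cells, differed by -0.39 (SE 0.15), and by -0.09 with the red cell marker level as a covariate. That covariate, chosen after the data had been seen, itself stood lower on metformin. With it, red cell content and treatment cannot be told apart.

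Transcripts of the known targets of metformin had small differences. Of 12 AMPK subunits and upstream kinases, 3 stood higher and 9 lower, all between -0.10 and 0.06, with a median of -0.04 that was 0.00 under quantile and loess scaling. Prkaa2, the main catalytic subunit in muscle, lay between 16.01 and 16.17 in controls and between 15.95 and 16.10 on metformin. Prkab1 differed by -0.10 (SE 0.10) and the scaffold Cab39 by -0.07 (SE 0.06). Of 36 complex I subunits, 10 stood higher and 26 lower, with differences from -0.20 to 0.07, a median of -0.04 that turned to 0.04 after a second quantile normalization, and 0 members at an unadjusted p below 0.05. Ndufv3 had the lowest value (-0.20, SE 0.10), and Ndufab1 lay at 14.34 to 14.39 against 14.23 to 14.27 with arms apart (-0.12, SE 0.07, adjusted p = 0.827). The 17 genes of the tricarboxylic acid cycle ranged from -0.05 to 0.09, with 0 at an unadjusted p below 0.05.

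Among 16 regulators of mitochondrial biogenesis, 8 stood higher and 8 lower. Ppargc1a, the coactivator PGC-1alpha, read 13.62, 13.51, 13.52 and 12.95 in controls and 13.58, 12.74, 12.79 and 13.06 on metformin (-0.36, SE 0.20, adjusted p = 0.813). Metformin replicate 1 sat among the 3 high controls. The nuclear deacetylase Sirt1 differed by -0.24 (SE 0.09, adjusted p = 0.636) and its mitochondrial relative Sirt3 by 0.14 (SE 0.07, adjusted p = 0.727). Of the carriers that move metformin, Slc22a2 and Slc29a4 were dim, at no more than 5.23 and 4.75 in any heart, and Slc22a3, the carrier OCT3, lay between 6.79 and 6.90 in controls and between 6.33 and 6.83 on metformin (-0.25, SE 0.15, adjusted p = 0.836). The exporter Slc47a1 differed by -0.21 (SE 0.16). Of the 8 transporters tested, 0 met an unadjusted p below 0.05.

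Genes of sterol synthesis stood mostly lower, 14 of 19 tested, with a median of -0.11 (-0.10 to -0.15 under the other scalings). The arms did not overlap for 3 lower and 0 higher members, against 2.8% and 1.76% of all genes. Insig1, which holds SREBP factors in the endoplasmic reticulum and is itself an SREBP target, read 8.65, 9.22, 8.62 and 8.69 in controls and 8.45, 8.06, 8.16 and 8.16 on metformin (-0.59, SE 0.15, adjusted p = 0.313). Control replicate 2 stood above the other controls, and the difference stayed between -0.67 and -0.44 when any 1 array was left out. Fdft1, squalene synthase, lay between 11.03 and 11.47 against 10.62 to 10.95 (-0.40, SE 0.12, adjusted p = 0.473). Msmo1, a demethylase of the later pathway, lay between 8.60 and 8.73 against 8.31 to 8.57 (-0.21, SE 0.14, adjusted p = 0.855), and Idi1, an isomerase of the early pathway, differed by -0.38 (SE 0.18) with overlapping arms. Mvd, a dim member of the list, went the other way. It lay between 5.17 and 5.43 in controls and between 5.08 and 5.73 on metformin (0.21, SE 0.10, adjusted p = 0.762).

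Genes of the endoplasmic reticulum chaperone list stood slightly higher, 16 of 20 tested, with a median of 0.06 (0.02 to 0.13 under the other scalings, 0.05 to 0.10 with 1 heart left out). Unadjusted p below 0.05 was met by 2 higher members (2.55% of all genes in that direction). Hspa5, the chaperone BiP, read 14.78, 14.61, 14.68 and 14.91 in controls and 14.88, 15.12, 15.01 and 15.21 on metformin, with only control replicate 4 inside the metformin range (0.31, SE 0.11, adjusted p = 0.599). Pdia4, a disulfide isomerase, differed by 0.34 (SE 0.15, adjusted p = 0.693) and Hsp90b1, the chaperone GRP94, by 0.21 (SE 0.11, adjusted p = 0.791). Metformin replicate 1 sat among the controls for both. A known promoter sequence of such genes is the endoplasmic reticulum stress element (CCAAT, 9 bases of any kind, then CCACG), through which the unfolded protein response acts. It was searched on both strands in the 250 bases before each RefSeq start on the GRCr8 assembly. It was found in 7 of the 18 promoters of this list that could be matched (38.9%) and in 21 of all 27457 promoters (0.0765%). The list holds genes other than chaperones too, and 1 of the 7 is the transcription factor gene Xbp1. Other motifs, among them those of NF-kappaB and the glucocorticoid receptor, were searched too, in the promoters of every list. Their counts are not given here, so the element is shown from a wider search. The 7 genes with the element stood 0.03 to 0.31 higher (median 0.13), and the 11 without it ranged from -0.05 to 0.34 (median 0.04). Pdia4, with the largest difference of the list, was among those without it. The 2 list members with no matched promoter stood higher by 0.04 and 0.15. Whether the element bears on the differences was not tested. The matches describe the letters only. The following 2 promoters, of the named members that carry the element, are shown 5' to 3' on the strand of the gene, with the element or its reverse complement in capitals. Hspa5 lies on the plus strand of chromosome 3 (chr3:38452766-38453015) with 1 copy, and Hsp90b1 on the minus strand of chromosome 7 (chr7:23012294-23012543) with 2 copies.
Hspa5: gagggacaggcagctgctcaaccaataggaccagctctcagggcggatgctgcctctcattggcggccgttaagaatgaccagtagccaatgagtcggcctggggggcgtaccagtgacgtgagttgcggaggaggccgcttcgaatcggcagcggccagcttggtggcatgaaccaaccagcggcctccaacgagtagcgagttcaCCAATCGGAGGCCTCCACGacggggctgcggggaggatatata
Hsp90b1: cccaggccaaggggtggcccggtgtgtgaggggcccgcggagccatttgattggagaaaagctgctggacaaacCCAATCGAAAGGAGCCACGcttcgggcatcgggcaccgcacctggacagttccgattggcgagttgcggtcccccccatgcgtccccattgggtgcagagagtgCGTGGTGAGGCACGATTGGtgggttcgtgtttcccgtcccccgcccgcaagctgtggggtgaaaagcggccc

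Other stress pathways showed single members. Of 19 cytosolic heat shock genes, only Hsph1, a relative of Hsp70, met an unadjusted p below 0.05, at 10.21 to 10.90 against 10.63 to 11.21 (0.40, SE 0.17, adjusted p = 0.686). The arms did not overlap for 1 member (2.8% of all genes were lower with arms apart). It was Cryab, at 9.78 to 9.95 in controls and 9.74 to 9.77 on metformin (-0.12, SE 0.06, adjusted p = 0.766). Of 22 ATF4 targets, the arms did not overlap for 0 lower members and 2 higher ones (1.76% of all genes were higher with arms apart), the arginine carrier Slc7a1 (0.33, SE 0.15, adjusted p = 0.711) and the serine synthesis enzyme Psph (0.18, SE 0.10, adjusted p = 0.795). Of the 22, 14 stood higher and 8 lower. Atf4 itself differed by 0.11 (SE 0.12) and Ddit3, the pathway's CHOP factor, by 0.17 (SE 0.12), both with overlapping arms. Mthfd2, another target, stood lower, by -0.17 (SE 0.10, adjusted p = 0.83), also with overlapping arms. Among 20 NRF2 targets, the thioredoxin reductase Txnrd1 lay between 9.12 and 9.25 against 9.28 to 9.52 (0.20, SE 0.08, adjusted p = 0.675). The ferritin light chain Ftl1 was lower in every metformin heart (-0.36, SE 0.17, adjusted p = 0.719), and differed by -0.15 with the red cell marker level as a covariate. The limit of that covariate given for Bnip3l holds for Ftl1 too.

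Of the cardiac stress and fetal genes, none had arms apart on day 1: of 17 tested, 11 stood higher and 6 lower, with 0 at an unadjusted p below 0.05. Nppa, the atrial natriuretic peptide, read 14.10, 14.11, 16.47 and 15.02 in controls and 14.97, 14.56, 14.51 and 14.68 on metformin. Control replicate 3 was the highest of the 8, and the difference was -0.25 (SE 0.81), or 0.27 without that control. Nppa is also an atrial marker, and the atrial list, described below with the markers, was highest in the same heart. Nppb, its ventricular relative, differed by 0.14 (SE 0.51). Acta1, skeletal alpha-actin and a fetal gene of the ventricle, differed by 0.38 (SE 0.32), with 1 heart of each arm high, and Tnfrsf12a, the TWEAK receptor, by 0.74 (SE 0.63). Of 19 calcium handling genes, 3 stood higher and 16 lower with a median of -0.09 (-0.01 to -0.13 under the other scalings). Unadjusted p below 0.05 was met by 2 lower members, Casq1 and S100a1 (4.17% of all genes in that direction). S100a1, a calcium sensor that aids the pump and the release channel, read 10.62, 10.58, 10.38 and 10.19 in controls and 10.29, 10.06, 9.73 and 9.92 on metformin (-0.44, SE 0.15, adjusted p = 0.593). Ryr2, the cardiac release channel, lay between 17.38 and 17.47 against 17.27 to 17.36 (-0.10, SE 0.06, adjusted p = 0.839), but differed by 0.07 after a second quantile normalization and by 0.04 after cyclic loess.

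Markers of heart muscle were present in both arms: the 11 cardiomyocyte markers tested had mean levels from 7.62 (Nkx2-5) to 19.86 (Actc1) and differences from -0.18 to 0.01. Actc1 lay near the ceiling common to the arrays, described with the processing, whose effect on differences was not tested. The troponin gene Tnnt2 read 17.58 ± 0.01 (SD) against 17.57 ± 0.01. Most of these markers are shared by ventricle and atrium. Myl2, a light chain of ventricular muscle, lay between 15.35 and 15.40 in controls and between 15.34 and 15.40 on metformin. Of 8 atrial markers, 6 were tested, and their mean level relative to all 24 arrays was 0.42 in control replicate 3 and -0.39 to 0.10 in the other 7 hearts. The atrial potassium channel gene Kcna5 read 7.13, 6.43, 8.05 and 7.20 in controls and 6.56, 6.41, 6.57 and 6.64 on metformin (-0.66, SE 0.33, adjusted p = 0.76), and Nppa, the other marker that set this control apart, is given above; their part in the differences was not tested. The atrial light chain genes were dim there as elsewhere, at 6.18 for Myl4 and 5.45 for Myl7. In bulk tissue, fewer cells of a type and less RNA per cell cannot be told apart. Red cell transcripts were lower on metformin without a call. All 12 erythroid markers tested stood lower on metformin, with a median of -1.08 and 7 members at an unadjusted p below 0.05 (4.17% of all genes in that direction). The level of the list was 0.73, 1.04, 0.20 and 1.30 in controls and 0.14, -0.53, -0.63 and 0.44 on metformin, so that metformin replicate 4 lay above control replicate 3. The globin Hbb-bs read 18.23, 18.50, 17.42 and 18.40 against 17.36, 16.83, 16.08 and 17.18 (-1.28, SE 0.48, adjusted p = 0.641). Alas2, the heme synthesis enzyme of red cell precursors, read 12.66, 13.40, 11.77 and 13.80 against 11.81, 10.09, 10.14 and 12.35 (-1.81, SE 0.81, adjusted p = 0.707). The anion exchanger Slc4a1 differed by -1.17 (SE 0.50) and Hbb-b1 by -1.22 (SE 0.57). With the erythroid level as a covariate, a fit chosen after the data had been seen, 0 genes were called, 46.7% of genes at an unadjusted p below 0.05 were lower, Zbtb16 differed by 1.88, Id2 by 0.88, Bex3 by -0.47, Dlc1 by -0.59 and Casq1 by -0.77.

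**Figure D4:**
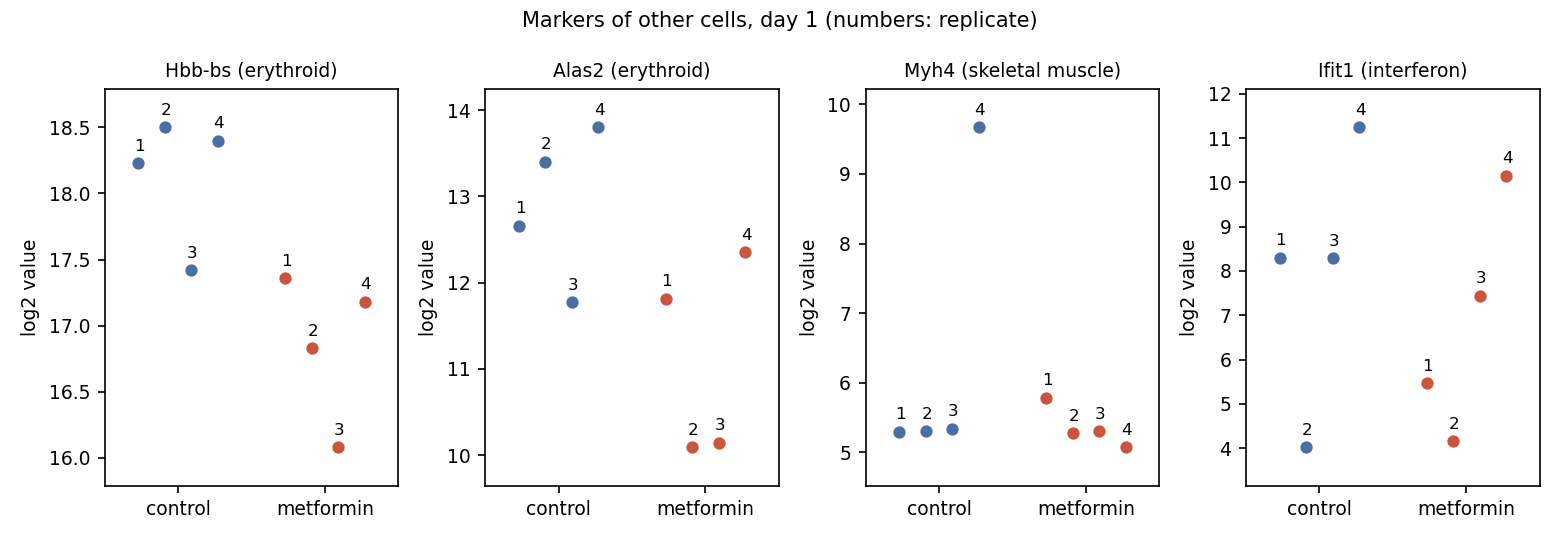
Log2 values of the erythroid genes Hbb-bs and Alas2, the skeletal muscle gene Myh4 and the interferon gene Ifit1 in the 8 hearts, numbered by replicate. The vertical axes do not start at 0 and differ between panels. Hbb-bs does not overlap between the arms, control replicate 4 alone carries Myh4 at 9.67, and Ifit1 runs from 4.02 to 11.24 with no order by arm.

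Skeletal muscle transcripts stood out in 1 control. Myh4, the fast myosin of skeletal fibres, read 5.29, 5.30, 5.34 and 9.67 in controls and 5.78, 5.27, 5.30 and 5.07 on metformin. The level of the 12 skeletal markers was 1.55 in that control and -0.09 to 0.16 in the other 7 hearts, and the list median of -0.39 became 0.04 without it. The same control had the highest interferon level, 0.55, against -0.49 to 0.19 on metformin and -0.17 to 0.03 in the other controls. Of 24 interferon and antigen presentation genes, 3 stood higher and 21 lower, with a median of -0.08 that became -0.01 without this control. Ifit1, an antiviral effector, read 8.30, 4.02, 8.29 and 11.24 against 5.46, 4.16, 7.44 and 10.15 (-1.16, SE 1.46), a spread wider within each arm than between them. Irf7, the interferon master factor, differed by -0.34 (SE 0.37), and by 0.06 without control replicate 4.

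The arms overlapped for every fibroblast marker. Of 12 tested, 11 stood higher, with a median of 0.20 (0.34 without control replicate 4 and 0.10 without metformin replicate 2) and 0 at an unadjusted p below 0.05. Postn, a matrix protein of activated fibroblasts, differed by 0.60 (SE 0.36) and Col1a1, a collagen chain, by 0.39 (SE 0.37), with control replicate 4 inside the metformin range for Postn and above all metformin hearts for Col1a1. Of 7 epicardial and mesothelial markers, 6 stood lower, and Upk3b lay at 6.09 to 6.55 in controls and 5.50 to 5.94 on metformin (-0.43, SE 0.20, adjusted p = 0.739). Prox1, a lymphatic factor that cardiac muscle also expresses, read 9.93, 10.19, 9.80 and 9.81 against 9.79, 9.38, 9.55 and 9.51 (-0.37, SE 0.16, adjusted p = 0.693). Of 23 cell cycle genes, 18 stood higher, with a median of 0.06 (0.01 to 0.12 with 1 heart left out) and 0 at an unadjusted p below 0.05.

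Whether the day 1 difference departed from that of later days was tested in the same fit, and 0 genes passed in either test (background 0.0% for each). The smallest adjusted p was 0.806 against day 3, with 757 genes (4.72%) at an unadjusted p below 0.05, and 0.392 against day 14, with 853 (5.32%). On its own, the metformin difference was called for 76 genes on day 3 (0.474%) and 45 on day 14 (0.281%). Of the 76, 33 met an unadjusted p below 0.05 on day 1 and 22 had arms apart on day 1 in the later direction, which is 28.9% of them against 4.56% of all genes. Of the 45, the counts were 19 and 13, which is also 28.9%. The days share no animals but share the estimate of the spread, so the p-values of a gene on different days are not independent.

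Members of this overlap included genes of contraction and its control. Mylk3, the kinase of cardiac myosin light chain, read 16.04, 15.94, 16.14 and 15.84 in controls and 15.81, 15.52, 15.81 and 15.81 on metformin on day 1. Every metformin heart was lower, by -0.25 (SE 0.08, adjusted p = 0.524), against -0.64 on day 3 (adjusted p = 0.000596) and -0.56 on day 14 (adjusted p = 0.00758). Myocd, the coactivator myocardin, read 11.56, 11.09, 11.45 and 11.19 against 10.90, 10.60, 10.98 and 10.52 (-0.58, SE 0.14, adjusted p = 0.316), beside -0.71 on day 3 and -0.39 on day 14. Phkg1 differed by -0.51 on day 1, -1.21 on day 3 and -0.88 on day 14, and Sun2 by -0.29, -0.29 and -0.40. The phosphatase gene Ptpn13 (-0.30, -0.42 and -0.48), the mineralocorticoid receptor gene Nr3c2 (-0.35, -0.36 and -0.47) and pyruvate carboxylase, Pc (-0.19, -0.45 and -0.43), also had arms apart on day 1. Sema5a, at -0.54 on day 1, was called on day 3 at -0.82 (adjusted p = 0.00145).

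Other genes called later had smaller differences on day 1. Dcxr, a carbonyl reductase, lay between 9.09 and 9.52 in controls and between 8.78 and 9.32 on metformin on day 1 (-0.25, SE 0.17), beside -1.21 on day 3 (adjusted p = 0.00157) and -1.13 on day 14 (adjusted p = 0.00758). Ivd, an enzyme of leucine breakdown, differed by -0.09 (SE 0.09) on day 1 and by -0.63 and -0.49 later, and its day 1 minus day 3 contrast was 0.54 (SE 0.12, adjusted p = 0.806). Bcat2 differed by -0.26 on day 1 against -0.76 and -0.56, and Corin, the protease that activates natriuretic peptides, by -0.13 against -0.81 and -0.64. Irs2 differed by -0.36 on day 1, -1.48 on day 3 and -2.48 on day 14, the last with an adjusted p of 0.016.

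For some genes the signed difference was higher on day 1 than on either later day, and none of their contrasts between days passed. Id2 differed by 0.73 on day 1, 0.14 on day 3 and -0.08 on day 14, a day 1 minus day 14 contrast of 0.82 (SE 0.24, adjusted p = 0.66). Slc38a1 differed by 0.41, -0.14 and -0.15 (contrasts 0.56 and 0.57, adjusted p = 0.83 and 0.602). The magnesium carrier Slc41a3 differed by 0.30, -0.33 and -0.90, and the actin regulator Cyria by 0.39, 0.02 and -0.48, with the smallest p of the day 1 minus day 14 contrast (adjusted p = 0.392 for both). The splicing factor Srsf3 differed by 0.05, -0.29 and -0.66 (adjusted p = 0.491), and the stress kinase Map3k20 by -0.01, -0.54 and -0.23 (adjusted p = 0.806 against day 3). Zbtb16 stood higher on all 3 days, by 2.02, 1.42 and 1.11, and was called on none (adjusted p = 0.226, 0.2 and 0.313). In contrast, Nfkbia had its lowest value on day 1, at -1.23, with 0.43 on day 3 and -0.67 on day 14.

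**Figure D5:**
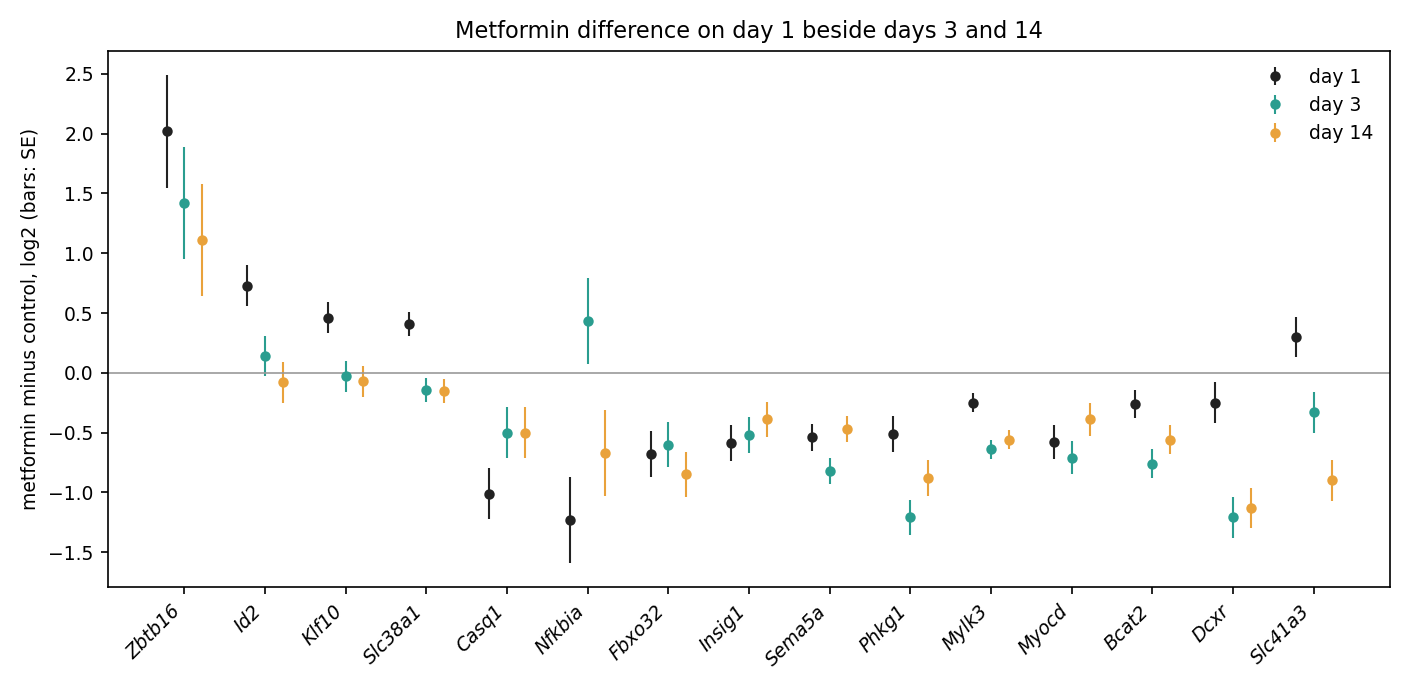
Metformin minus control on the log2 scale for 15 genes on day 1 (black), day 3 (green) and day 14 (orange), each from 4 against 4 hearts, with bars for the standard error of the fit. Zbtb16 is above 0 on each day, Id2 and Slc38a1 are above 0 by more than their standard error on day 1 only, and Phkg1, Mylk3 and Dcxr lie nearer to 0 on day 1 than later.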

How the data were processed

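Left ventricle RNA of 24 rats was measured on 1-colour arrays, 1 per animal, of which the 8 of day 1 are described. The authors deposited normalized linear intensity values, 1 per array and transcript cluster, with RMA named in the submitters' processing notes; its settings were not found in those notes. The highest value of each day 1 array lay between 999971 and 999974, a ceiling common to the arrays whose origin is not known here; its effect on fold changes was not tested.

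From these, log2 was taken with no further scaling. Of 68842 clusters, 23446 carried 1 gene symbol, 505 several and 44891 none here. The brightest cluster stood for each of 22037 genes, and the 16031 above the array median on at least 4 arrays were tested with limma 3.58.1 in R 4.3.3, with 1 mean per group over all 24 arrays, 18 residual degrees of freedom and Benjamini-Hochberg adjustment at 0.05. The fit was tested on simulated data. The number of arrays limits the precision.

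Members and lists were chosen with earlier results of these data known. Genes named are those with the smallest p or largest difference among genes whose arms do not overlap, up to 4 per list, leaders of the contrasts between days, and a fixed set. A further 14 were chosen after their values were seen: Gata6, Mef2a, Mt1, Nr4a1, Trim63, Msmo1, Atf4, Alas2, Ifit1, Mylk3, Nr3c2, Pc, Myocd and Ptpn13. The list members Actc1, Myl7, Tnnt2 and Xbp1 were also named outside this choice. Lists are described by counts and medians, with no set test. Alternatives covered the samples fitted, scaling, offset, filter, cluster choice, spread model, replicate block and each array left out.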

Additional observations from a re-analysis of the deposited data

Results flagged for a closer look

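Each arm of 4 hearts was examined for 124 of the genes named. Not among these were Actc1, Cryab, Kcna5, Mthfd2, Mvd, Myl2, Myl4, Myl7, Nkx2-5, Tnnt2 and Xbp1, which were not followed through the other settings either. In 18 of 248 arms (7.26%), the gap from the highest or lowest heart to the nearest of the others was too wide for their whole range by Dixon's test; chance gives about 1 arm in 20. Control replicate 4 stood apart for 5 genes. It was high for the skeletal myosin Myh4 (9.67 against 5.29 to 5.34) and low for Vsnl1 (6.55 against 6.97 to 7.00), Ppargc1a (12.95 against 13.51 to 13.62), Corin (13.15 against 13.45 to 13.50) and Dbt (14.80 against 14.97 to 15.00). Control replicate 1 was high for 3 metabolic genes: Slc25a20 (12.49 against 12.13 to 12.16), Etfb (14.55 against 14.30 to 14.33) and Irs1 (9.71 against 9.17 to 9.23). Control replicate 2 was high for Insig1 (9.22 against 8.62 to 8.69) and Upk3b (6.55 against 6.09 to 6.15) and low for Slc30a6 (7.67 against 7.72), and control replicate 3 was high for Ddit4 (9.72 against 8.60 to 8.78).

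Metformin replicate 1 was high for Per1 (8.29 against 7.45 to 7.51) and low for Nr1d1 (7.21 against 8.34 to 8.55) and Atf4 (8.64 against 9.07 to 9.10). Metformin replicate 2 was low for Mylk3 (15.52 against 15.81), replicate 3 high for Acta1 (18.50 against 17.83 to 17.91) and replicate 4 high for Cyria (11.88 against 11.45 to 11.52). The causes were not tested.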

How the results depend on the processing

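In each of the 19 other settings run, 0 genes were called on day 1, and 0 in either contrast between days in the 18 settings run for them. The number of genes at an unadjusted p below 0.05 stayed within 1.5 times of 1078 in each. The share of these that were lower, 62.1%, became 48.0% after a second quantile normalization, 84.2% after centring every array on its median and 46.7% when the level of erythroid markers entered as a covariate, which was chosen after seeing the data. Genes whose arms did not overlap, 731 with all hearts, numbered 1059 to 1598 with 1 heart left out, where smaller arms separate more easily.

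The replicate numbers did not pair the hearts: correlations of same-numbered deviations were 0.104, -0.114, 0.022 and 0.037. With a replicate block, 0 genes were called and 1025 met an unadjusted p below 0.05.

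Of 124 genes in 2351 gene and setting pairs, none passed the threshold and 22 pairs, over 13 genes, had the opposite sign. Under the second quantile normalization and cyclic loess these were Oxct1 (0.07 and 0.11), Prkaa2 (0.09 and 0.07), Cab39 (0.00 and 0.00), Ryr2 (0.07 and 0.04) and Map3k20 (0.07 and 0.02). With the erythroid covariate they were Slc22a2 (-0.04), Nppb (-0.06), Alas2 (0.05) and Map3k20 (0.05). Alas2 is itself one of the markers averaged into that covariate, so its change follows from the way the covariate was built. With 1 heart left out, the range was -0.25 to 0.05 for Bmal1 (highest without control 1), -0.05 to 0.04 for Map3k20 (highest without control 1), -0.52 to 0.27 for Nppa (control 3), -1.41 to 0.05 for Myh4 and -0.56 to 0.06 for Irf7 (both control 4), -0.08 to 0.36 for Nppb (lowest without metformin 1) and -0.00 to 0.10 for Srsf3 (metformin 2). For the scaling settings, and for the genes other than Alas2 under the covariate, the cause was not tested. Of 630 list medians recomputed, 28, over 15 lists, moved by more than the list's own spread.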
